A study of Mus musculus with 32 samples.

Results

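The ADAM and ADAMTS families are metalloproteases that cut proteins at the cell surface and in the extracellular matrix. Members were all genes of both count tables whose symbol is Adam, Adamts or Adamtsl followed by a number and at most 1 letter. That rule gave 56 of the 23284 genes, and 39 of the 56 had at least 10 counts in at least 3 of the 32 libraries and are described here. RNA sequencing (counts of sequenced fragments or reads per gene) had been run on 2 kinds of mouse sample, comparing animals or cells without Oct4 (Pou5f1, a pluripotency transcription factor) with wild type. The question named in the title of the study is what Oct4 does in smooth muscle cells in atherosclerosis.

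In lesions, the Oct4-/- group (KO) held brachiocephalic arteries of 4 animals and the wild-type group (WT) those of 4 animals. All 8 were of strain C57BL/6, had eaten a Western diet for 18 weeks, and gave tissue labelled as a mixture of cell types. In culture there was 1 primary aortic smooth muscle line from Oct4-/- mice and 1 from wild-type mice, both C57BL/6. Each line was grown in hypoxia (1% oxygen) or normoxia, and with POVPC, an oxidized phospholipid of lesions, or its vehicle, which makes 8 groups of 3 libraries. In culture, genotype and line cannot be told apart. The labels give the knockout only as Oct4-/-; the allele, any Cre driver, the animals' sex and age and the lengths of the hypoxia and POVPC exposures are not given in the sources used here. Nothing says that the 3 libraries of a group came from separate cultures, so the p-values below measure the spread between these samples, which may be technical.

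An ADAM (a disintegrin and metalloprotease) spans the membrane and sheds the outer parts of receptors, adhesion molecules and growth factor precursors. An ADAMTS enzyme carries thrombospondin motifs, is secreted, and trims or degrades matrix: one branch cuts the large proteoglycans versican and aggrecan, another removes the N-terminal propeptide of fibrillar procollagens, and Adamts7 and Adamts12 can cut cartilage oligomeric matrix protein (COMP). ADAMTS-like proteins share the thrombospondin motifs and have no protease domain. In arteries, versican-cutting ADAMTS enzymes, Adamts7, and the sheddases Adam10, Adam15 and Adam17 are the members best known from work on smooth muscle cells and plaques. Several ADAMs, such as Adam5, Adam18 and Adam32, are known from testis and sperm.

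Lesion libraries held 6526099 to 11137414 assigned fragments and culture libraries 8063121 to 30231799 assigned reads. The 3 shallowest culture libraries were all hypoxic: WT POVPC hypoxia 2, KO vehicle hypoxia 3 and WT POVPC hypoxia 1. They had 9.24, 8.07 and 5.8 reads left unassigned for mapping to several places per assigned read, against a culture median of 1.53. Pou5f1 had counts in 1 of the 8 lesion libraries and 3 of the 24 culture libraries, with at most 3 counts, so its level does not check the genotype labels. Lesion library KO 4 stood apart from the others on the first principal component, and the ribosomal transcript Rn45s, at 1.29% to 11.1% of culture counts, had its 5 highest shares, from 7.095%, in WT POVPC normoxia 1 and 3, KO POVPC hypoxia 1, KO vehicle normoxia 3 and WT POVPC hypoxia 2. Smooth muscle contractile markers (10 genes) summed to 5237 to 11279.9 CPM, counts scaled to the size of the library, in lesions and only 40.9 to 437 CPM in culture, with none of the 10 at 0. Macrophage and endothelial markers summed to at most 64.2 and 5.56 CPM in any culture library.

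Per kilobase of exon, Adam9, Adam15 and Adamts2 were among the highest members in both kinds of sample. Levels were compared between genes as RPKM, the CPM per kilobase. Adam9, a widely expressed sheddase, had the highest mean in lesions (56.4 RPKM, range 44.7 to 72.6 over 8 libraries) and in culture (59.7 RPKM, range 42.2 to 84.9 over 24 libraries). In lesions it was followed by Adamts2, a procollagen N-proteinase, at 43.2 RPKM (range 34.5 to 52.3), Adam15 at 40.9 RPKM (range 36.8 to 44.97) and Adam8, a leukocyte ADAM, at 35.3 RPKM (range 18.01 to 60.04). Adam9 had the highest level in each of the 8 lesion libraries, while the ranges of the other 3 overlapped. In culture Adam9 was highest in only 3 of the 24 libraries; Adam15, Adamts1 and Adamts2 led in 6 each and Adamtsl3 in 3. In culture the next 4 were Adam15 at 51.8 RPKM, Adamts1 at 51.1 RPKM, Adamts2 at 47.4 RPKM and Adamtsl3 at 33.7 RPKM. Their ranges over the culture groups were wide, from 4.89 to 96.5 RPKM for Adamtsl3 and from 13.9 to 111 RPKM for Adamts1.

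Several members were read almost entirely in lesions. Adam8 averaged 141 ± 35.5 CPM in KO lesions and 73.4 ± 13.7 CPM in WT lesions (SD, n = 4 each), against group means of 1.2 to 1.8 CPM in culture. Adam23, a protease-dead ADAM of neurons, averaged 43.3 ± 23.2 CPM in KO lesions and 58.8 ± 13.1 CPM in WT lesions, and Adam33, a mesenchymal ADAM, 17.6 ± 6.45 and 22.5 ± 4.06 CPM in KO and WT lesions; in culture the highest group mean of Adam23 was 0.117 CPM, in WT POVPC hypoxia. Adamts8, Adamts20 and Adamts3 likewise passed the low-count filter only in lesions. Adam18, Adam21 and Adam30 passed it only in culture, but only Adam18 had a lower mean level in lesions (0.0708 RPKM, against 1.02 RPKM in culture). Adam21 averaged 0.253 RPKM in lesions and 0.184 RPKM in culture, and Adam30 0.168 and 0.15 RPKM. The lesion and culture tables differ in counting unit, tissue and depth, so no test was set across them.

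**Figure D1:**
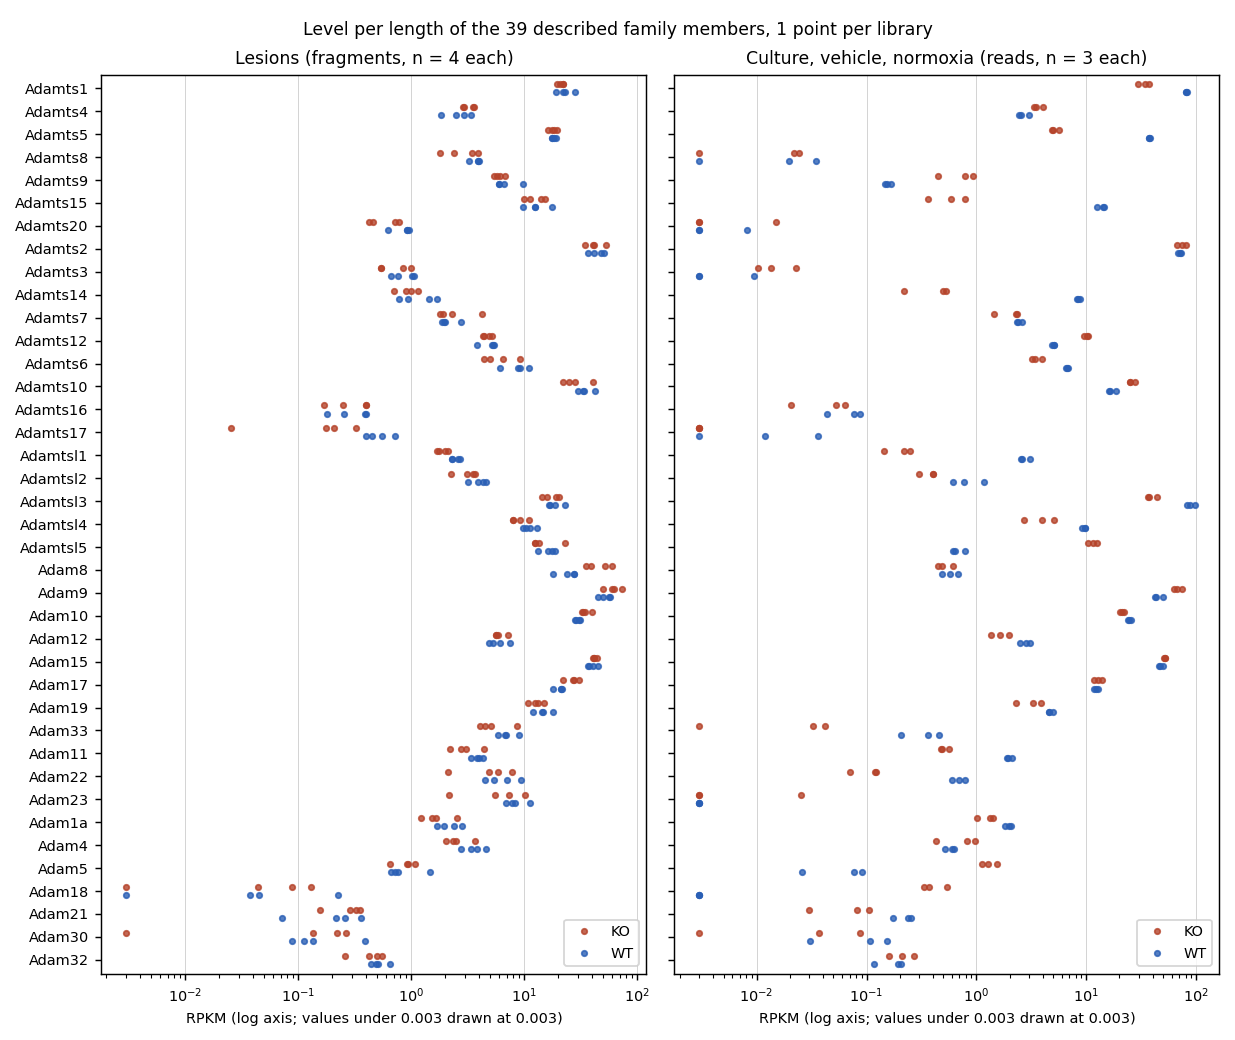
Level of each of the 39 described members as RPKM on a log axis, 1 point per library, in lesions (4 KO and 4 WT, left panel) and in vehicle normoxia culture (3 KO and 3 WT, right panel), with values under 0.003 drawn at 0.003. KO and WT points lie close together in lesions and far apart in culture for Adamts5, Adamts14, Adamts15 and Adamtsl5.

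In culture the family moved with hypoxia and with genotype in most of its members and with POVPC in the WT line. Calls are genes with a false discovery rate (FDR) under 0.05 in edgeR's quasi-likelihood test, adjusted over all 14496 genes tested in culture or 14993 in lesions. Under hypoxia, 10 of 35 members were higher in the KO line with vehicle (32.6% of all genes) and 17 lower (32.8%), with 65.4% of all genes called, and with POVPC 10 were higher (34.5% of all genes) and 18 lower (33.9%), with 68.5% called. In the WT line with vehicle 7 were higher (32.8% of all genes) and 19 lower (35.3%), with 68.1% called, and with POVPC 5 were higher (31.8%) and 18 lower (34.3%), with 66.1% called. The share of members called was thus near that of all genes. In each pair 17 to 19 of 35 members fell (48.6% to 54.3%), beside 32.8% to 35.3% of all genes. Some members passed the low-count filter through their normoxic level, so these shares and the medians that follow are a description and do not support a direction. The median log2 fold change of members under hypoxia was -0.427 and -0.413 in the KO line with vehicle and POVPC, and -0.842 and -0.678 in the WT line, where the median of all genes lay between -0.032 and 0.026.

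Between the lines, KO over WT in vehicle normoxia, 8 members were higher (29.8% of all genes) and 17 lower (30.8%), with 60.6% of all genes called. In vehicle hypoxia 13 were higher (29.5%) and 13 lower (30.4%; 59.9% called), in POVPC normoxia 10 higher (29.5%) and 15 lower (30.7%; 60.2% called), and in POVPC hypoxia 12 higher (30%) and 12 lower (27.6%; 57.6% called). POVPC against vehicle gave 6 members higher (13.1% of all genes) and 12 lower (13.8%; 26.9% called) in WT normoxia, and 6 higher (8.22%) and 8 lower (12.7%; 21% called) in WT hypoxia. In the KO line POVPC gave no call among the members in normoxia, where 0.0069% of all genes were higher and 0.0345% lower (0.0414% called), and 0 higher and 2 lower in hypoxia, where 1.97% of all genes were higher and 2.09% lower (4.06% called). For the 0 in KO normoxia, 2 members had an unadjusted edgeR p under 0.05, and DESeq2 called 0 (0.11% of all genes); without KO vehicle normoxia 3, edgeR called 1. Of the 35 members tested in culture, 19 had at least 10 counts in all 24 libraries and the other 16 did not. Part of these 16 entered through the groups in which they are high, so the counts over 35 describe and do not support a direction.

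**Figure D2:**
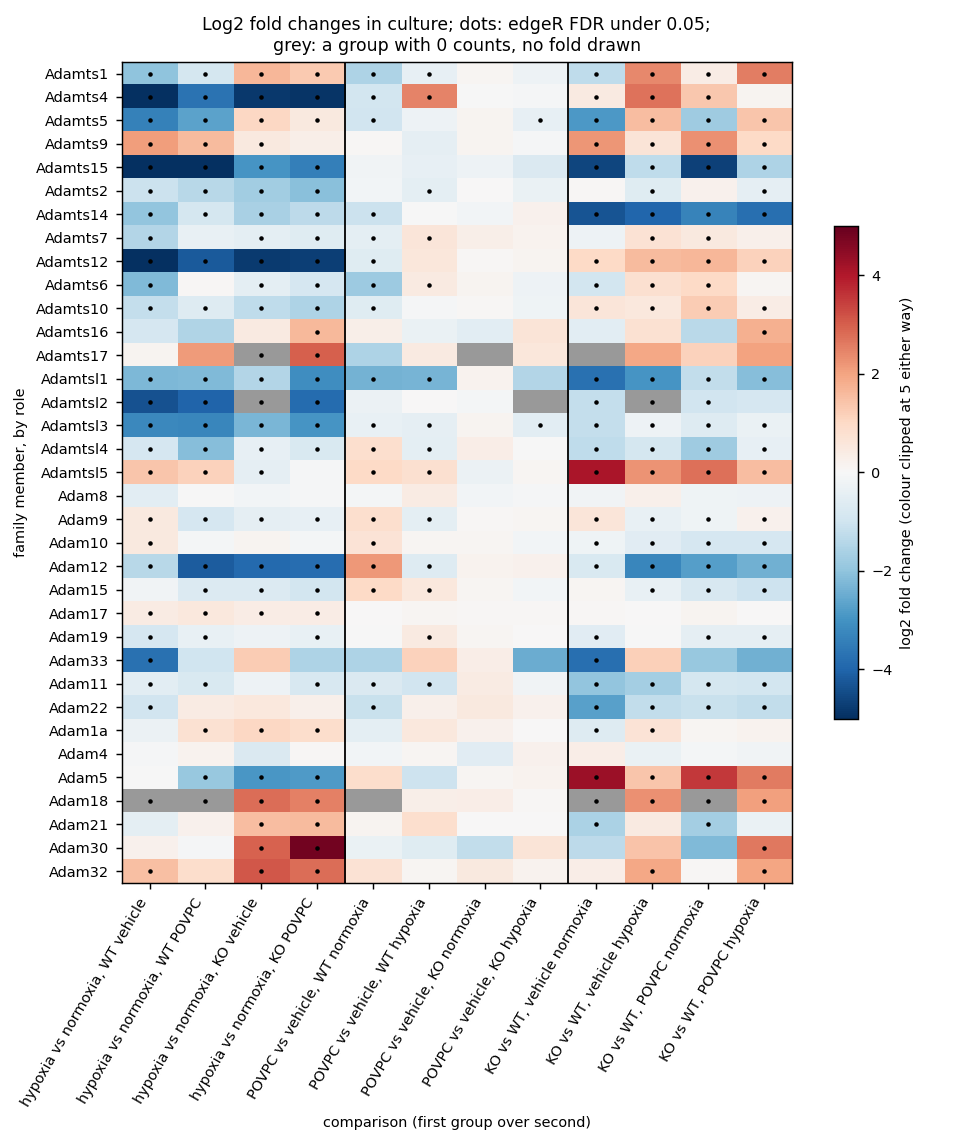
Log2 fold change (colour, clipped at 5 either way) of the 35 members tested in culture, as rows grouped by role, in the 12 culture comparisons as columns; a dot marks an edgeR FDR under 0.05 and grey a group with 0 counts, where no fold is drawn. The hypoxia columns are mostly below 0 for the ADAMTS and ADAMTS-like rows, and the POVPC columns of the KO line are near 0 with 0 and 2 dots.

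Matrix-directed members made up most of those called lower in hypoxia in all 4 pairs of culture groups. Of the 35 tested in culture, 11 fell in all 4 pairs of groups, which share no library with each other: Adamts2, Adamts4, Adamts10, Adamts12, Adamts14, Adamts15, Adamtsl1, Adamtsl2, Adamtsl3, Adamtsl4 and Adam12. They were 31.4% of the members, beside 19.8% of all genes. Some entered the test through their normoxic level. Adamtsl2 had 10 or more counts in 12 culture libraries, and at most 4 counts in any hypoxic one. The share therefore describes these members and does not support a direction of the family. Without 1 library, 1 of these calls was lost, that of Adamtsl4 in KO with vehicle (-0.43; the call was lost when KO vehicle normoxia 2 (-0.42), KO vehicle normoxia 3 (-0.19), KO vehicle hypoxia 1 (-0.42), KO vehicle hypoxia 2 (-0.43) or KO vehicle hypoxia 3 (-0.43) was left out). Adam17 and Adam18 rose in all 4 pairs (5.71% of members, 18.7% of all genes), and Adamts1, Adamts5, Adamtsl5 and Adam9 were called in opposite directions in different pairs (11.4% of members, 8.02% of all genes). The sums of 10 contractile markers and 8 adventitial fibroblast genes were lower in the same libraries. The fibroblast list summed to 760 to 1282 CPM in hypoxia, against 4877 to 6094 CPM in normoxia. The contractile list summed to 40.9 to 86.6 CPM in hypoxia, against 144 to 437 CPM in normoxia. Not every gene fell. Contractile genes called higher and lower numbered 1 and 4 in KO with vehicle, and 1 and 6 with POVPC. In WT they numbered 1 and 9 with vehicle, and 0 and 8 with POVPC. For the fibroblast list it was 2 and 5 in WT with vehicle, and 0 and 7 in each of the other pairs. The part of cell state in the member changes was not tested.

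Among the proteoglycan-cutting enzymes, Adamts1 and Adamts5 went in opposite directions in the lines. Adamts1, a versicanase, had 519, 542 and 492 CPM in KO vehicle hypoxia, against 144, 168 and 181 CPM in KO vehicle normoxia (log2 fold change 1.66, SE 0.099, edgeR FDR 8.92e-15). In the WT line it had 104, 91.6 and 100.2 CPM in vehicle hypoxia, against 393, 403 and 396 CPM in vehicle normoxia (log2 fold change -2.01, SE 0.1, edgeR FDR 9.51e-17). All 3 hypoxic libraries were above the normoxic ones in the KO line and below them in the WT line. Here and below, most culture members given by library were chosen as called with large fold changes in the same libraries. That choice favours groups without overlap, and the share of all genes without overlap was not counted, so such sentences only describe. With POVPC the directions were the same: 517, 358 and 433 CPM in KO hypoxia against 184, 165 and 172 CPM in KO normoxia (log2 fold change 1.33, edgeR FDR 8.51e-13), and 73.9, 67.9 and 82.2 CPM in WT hypoxia against 140.4, 135 and 132 CPM in WT normoxia (-0.86, edgeR FDR 9.6e-09). The difference between the lines was itself called, with vehicle (difference in log2 fold change 3.67, SE 0.14, edgeR FDR 5.02e-18) and with POVPC (difference in log2 fold change 2.19, SE 0.14, edgeR FDR 4.96e-13).

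Adamts5, the aggrecanase that lies 55042 bases from Adamts1 on chromosome 16 with 1 gene between, gave the same pattern. It had 92.7, 86.8 and 75.6 CPM in KO vehicle hypoxia, against 39.5, 40.1 and 45.3 CPM in KO vehicle normoxia (log2 fold change 1.03, SE 0.096, edgeR FDR 1.53e-10). The WT line had 30.4, 28.4 and 28.97 CPM in vehicle hypoxia, against 304, 301 and 305 CPM in vehicle normoxia (log2 fold change -3.37, SE 0.10, edgeR FDR 8.68e-22). The hypoxic KO libraries all lay above the normoxic KO ones, and the hypoxic WT libraries all lay far below the normoxic WT ones. With POVPC the log2 fold change was 0.48 in the KO line (edgeR FDR 6.12e-05) and -2.66 in the WT line (edgeR FDR 3.48e-19). The lines differed with vehicle (difference in log2 fold change 4.41, SE 0.14, edgeR FDR 9.54e-20) and with POVPC (difference in log2 fold change 3.14, SE 0.14, edgeR FDR 2.08e-16).

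Adamts15, another versicanase, and Adamts4, an aggrecanase, were nearly lost in hypoxia in both lines. Adamts15 had 0.841, 1.32 and 1.08 CPM in WT vehicle hypoxia, against 85.6, 83.1 and 74.7 CPM in WT vehicle normoxia (log2 fold change -6.26, SE 0.24, edgeR FDR 4.19e-17). In the KO line it was already low in normoxia, and had 0.844, 0.0953 and 0.204 CPM in vehicle hypoxia, against 3.49, 4.65 and 2.15 CPM in vehicle normoxia (log2 fold change -2.95, edgeR FDR 1.92e-07; the value was -4.65 without KO vehicle hypoxia 1). No hypoxic library reached the lowest normoxic one of its line. Adamts4 had 0.464, 0.476 and 0.408 CPM in KO vehicle hypoxia, against 12.8, 12.2 and 14.9 CPM in KO vehicle normoxia (log2 fold change -4.84, SE 0.25, edgeR FDR 4.7e-16). In the WT line it had 0.0701, 0 and 0.102 CPM in vehicle hypoxia, against 11.1, 9.25 and 8.999 CPM in vehicle normoxia, with 5 counts over the 3 hypoxic libraries against 848 over the normoxic ones (edgeR FDR 1.41e-17). These levels in hypoxia are near that of single reads, so the size of the fall is poorly fixed.

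Adamts9, which also cuts versican, was the proteoglycanase that rose in the WT line, from a low level. It had 3.398, 4.39 and 4.4 CPM in WT vehicle hypoxia, against 0.936, 0.8903 and 1.01 CPM in WT vehicle normoxia (log2 fold change 2.09, SE 0.25, edgeR FDR 2.07e-08), and the libraries did not overlap. In the KO line it averaged 6.22 ± 0.829 CPM in vehicle hypoxia and 4.38 ± 1.51 CPM in vehicle normoxia (SD, n = 3 each; log2 fold change 0.50, edgeR FDR 0.0448; the call was lost when KO vehicle normoxia 1 (0.26), KO vehicle normoxia 2 (0.56), KO vehicle hypoxia 1 (0.37) or KO vehicle hypoxia 3 (0.54) was left out). The difference between the lines was called (difference in log2 fold change -1.59, SE 0.33, edgeR FDR 0.000341).

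The procollagen and COMP-cutting enzymes fell in both lines with vehicle. Adamts12 had 2.28, 1.95 and 2.85 CPM in KO vehicle hypoxia, against 63.4, 59.8 and 64.6 CPM in KO vehicle normoxia (log2 fold change -4.78, SE 0.13, edgeR FDR 2.03e-22). It had 0.841, 0.439 and 0.88 CPM in WT vehicle hypoxia, against 30.1, 31.8 and 31.9 CPM in WT vehicle normoxia (log2 fold change -5.36, SE 0.15, edgeR FDR 7.3e-23). No hypoxic library came near a normoxic one in either line. Adamts2 averaged 82.9 ± 4.22 CPM in KO vehicle hypoxia and 274 ± 24.4 CPM in KO vehicle normoxia (log2 fold change -1.73, edgeR FDR 4.39e-14), and 125 ± 10.2 CPM in WT vehicle hypoxia and 264 ± 8.69 CPM in WT vehicle normoxia (-1.07, edgeR FDR 4.51e-10; SD, n = 3 each). Adamts14, the other procollagen enzyme tested in culture, fell by 1.63 on the log2 scale in the KO line and by 1.97 in the WT line with vehicle (edgeR FDR 2.94e-05 and 1.11e-11). Adamts7 fell in the KO line with vehicle by 0.47 on the log2 scale (edgeR FDR 0.0164), and the call was lost when KO vehicle normoxia 2 (-0.38), KO vehicle normoxia 3 (-0.35) or KO vehicle hypoxia 2 (-0.40) was left out. It fell in the WT line with vehicle (log2 fold change -1.45, edgeR FDR 1.06e-08) and its value was -0.38 there with POVPC, which missed the threshold (edgeR FDR 0.0583).

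The promoters of 4 members are shown because these genes moved in different ways: Adamts1 in opposite directions in the lines, Adamts9 up in WT hypoxia, Adamts12 down in all 4 pairs, and Adam10 with small fold changes. The windows are the 250 bases before the gene start in RefSeq's GRCm38.p6 annotation, read 5′ to 3′ on the gene's strand: Adamts1 at chr16:85803114-85803363, minus strand, Adamts9 at chr6:92943535-92943784, minus strand, Adamts12 at chr15:11064523-11064772, plus strand and Adam10 at chr9:70678732-70678981, plus strand. Capitals mark ACGTG or GCGTG on either strand, the core letters of the motif that hypoxia-inducible factors bind; matches can overlap, as where both strands hold the letters. A window was found for 21 of the 39 described members (23 windows). Either form was in 18 windows of 16 members, beside 12679 of 32851 windows of all genes (38.6%), and ACGTG was in 6 windows of 5 members (Adamts3, Adamts17, Adamts20, Adam10 and Adam19), beside 5444 windows of all genes (16.6%). All 4 printed windows hold a match, of which only that of Adam10 holds ACGTG, and a match or its absence in this window is a description of these letters only.
Adamts1: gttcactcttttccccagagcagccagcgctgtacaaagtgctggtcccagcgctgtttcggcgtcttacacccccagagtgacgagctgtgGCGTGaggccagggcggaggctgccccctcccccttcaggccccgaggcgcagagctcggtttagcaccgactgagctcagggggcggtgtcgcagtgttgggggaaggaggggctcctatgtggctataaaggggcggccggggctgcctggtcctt
Adamts9: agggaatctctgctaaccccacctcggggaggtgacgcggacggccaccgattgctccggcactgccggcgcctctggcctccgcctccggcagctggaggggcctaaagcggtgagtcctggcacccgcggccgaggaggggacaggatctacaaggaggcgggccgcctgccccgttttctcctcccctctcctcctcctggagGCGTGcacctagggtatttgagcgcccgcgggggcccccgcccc
Adamts12: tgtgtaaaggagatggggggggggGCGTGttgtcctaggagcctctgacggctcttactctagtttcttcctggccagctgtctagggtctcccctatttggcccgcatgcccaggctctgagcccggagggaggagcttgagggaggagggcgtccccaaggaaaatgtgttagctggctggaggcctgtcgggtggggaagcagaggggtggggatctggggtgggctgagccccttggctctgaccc
Adam10: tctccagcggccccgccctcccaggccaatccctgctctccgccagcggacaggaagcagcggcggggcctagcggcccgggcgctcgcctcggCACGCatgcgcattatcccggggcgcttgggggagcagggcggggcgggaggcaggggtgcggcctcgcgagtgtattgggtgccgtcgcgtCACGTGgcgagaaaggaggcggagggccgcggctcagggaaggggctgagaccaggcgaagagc

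The ADAMTS-like genes, which encode matrix proteins without a protease domain, fell with 1 exception. Adamtsl3 had 53.9, 61.4 and 60.4 CPM in KO vehicle hypoxia, against 265, 268 and 323 CPM in KO vehicle normoxia (log2 fold change -2.29, SE 0.1, edgeR FDR 6.54e-18). It had 77.5, 60.2 and 69.6 CPM in WT vehicle hypoxia, against 703, 602 and 643 CPM in WT vehicle normoxia (log2 fold change -3.23, SE 0.10, edgeR FDR 2.53e-21). The groups did not overlap in either line. Adamtsl2, which in humans is mutated in a short-stature connective tissue disorder, had 0 counts in the 3 KO vehicle hypoxia libraries against 82 in KO vehicle normoxia, at least 21.8-fold lower with a floor of 3 counts over the group (edgeR FDR 6.01e-08). Adamtsl1 fell in both lines with vehicle (log2 fold change -1.47 in KO, -2.25 in WT; edgeR FDR 0.000241 and 2.08e-11). Adamtsl4, a fibrillin-binding protein, fell in WT with vehicle (-0.84, edgeR FDR 2.33e-05) and POVPC (-2.15, edgeR FDR 9.96e-12).

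Adamtsl5 was the exception. In the WT line it had 4.34, 5.601 and 3.79 CPM in vehicle hypoxia, against 1.58, 2.003 and 1.63 CPM in vehicle normoxia (log2 fold change 1.37, SE 0.16, edgeR FDR 1.84e-08). In the KO line it had 20.5, 20.96 and 23.3 CPM in vehicle hypoxia, against 26.6, 29.3 and 32.02 CPM in vehicle normoxia (log2 fold change -0.45, SE 0.12, edgeR FDR 0.00221). The hypoxic libraries were above the normoxic ones in WT and below them in KO. The lines differed (difference in log2 fold change -1.81, SE 0.20, edgeR FDR 3.14e-08).

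Of the membrane ADAMs, Adam12, a growth-factor sheddase of mesenchymal cells, fell in all 4 pairs. It had 0.422, 1.14 and 1.22 CPM in KO vehicle hypoxia, against 10.3, 12.6 and 15.3 CPM in KO vehicle normoxia (log2 fold change -3.89, SE 0.26, edgeR FDR 1.46e-12). In WT it had 9.25, 7.58 and 7.92 CPM in vehicle hypoxia, against 23.8, 19.05 and 21.6 CPM in vehicle normoxia (log2 fold change -1.37, SE 0.17, edgeR FDR 1.44e-07), and 4.69, 3.01 and 6.92 CPM in POVPC hypoxia, against 98.5, 97.9 and 92.3 CPM in POVPC normoxia (log2 fold change -4.18, SE 0.20, edgeR FDR 9.47e-16). Every hypoxic library was below the normoxic ones of its pair. Adam17, the tumour necrosis factor sheddase, rose slightly in all 4 pairs, by 0.38, 0.39, 0.43 and 0.52 on the log2 scale (edgeR FDR at most 0.000199). It averaged 73.1 ± 6.39 CPM in KO vehicle hypoxia and 56.4 ± 4.47 CPM in KO vehicle normoxia, and 72.4 ± 9.13 CPM in WT vehicle hypoxia and 53.8 ± 2.22 CPM in WT vehicle normoxia (SD, n = 3 each). Its exons overlap those of the opposite-strand gene Iah1 over 99 bases, and the counting did not use strand.

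The sheddase Adam10, the integrin-binding Adam15 and Adam9 had smaller fold changes under hypoxia than Adam12. Adam10 had a log2 fold change of 0.13 in KO vehicle cells, which missed the threshold (edgeR FDR 0.0643), and of 0.50 in WT vehicle cells (edgeR FDR 3.83e-08). Adam15 fell in KO vehicle cells (-0.67, edgeR FDR 7.14e-08) and had -0.18 in WT vehicle cells (edgeR FDR 0.0616). With POVPC Adam15 was called lower in both lines, also in every fit without 1 library. Over those fits its log2 fold change was -0.97 to -0.88 in KO and -0.83 to -0.54 in WT. In KO it had 84.3, 88.1 and 89.4 CPM in POVPC hypoxia, against 170, 156 and 167 CPM in POVPC normoxia. Adam9 fell in KO vehicle cells (-0.45, edgeR FDR 5.26e-05) and rose in WT vehicle cells (0.51, edgeR FDR 8.94e-06), and with POVPC it fell in WT too (-0.83, edgeR FDR 1.94e-09). Adam8 was read at about 1 to 2 CPM throughout and gave no call.

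Of the ADAMs known from testis, Adam18 and Adam32 rose from low levels. Adam18 had 6.33, 5.24 and 8.97 CPM in KO vehicle hypoxia, against 1.28, 0.789 and 0.876 CPM in KO vehicle normoxia (log2 fold change 2.78, SE 0.26, edgeR FDR 9.62e-10). In WT it had 1.296, 1.43 and 1.39 CPM in vehicle hypoxia and 0 counts in all 6 normoxia libraries, at least 39.7-fold higher with vehicle and at least 40.97-fold higher with POVPC, taking 3 counts over the whole group as the floor. All hypoxic libraries were above the normoxic ones. Adam32 had 3.25, 4.72 and 5.81 CPM in KO vehicle hypoxia, against 0.666, 0.394 and 0.518 CPM in KO vehicle normoxia (log2 fold change 3.10, SE 0.41, edgeR FDR 1.21e-07). Adam5 went the other way in the KO line, with 0.3796, 0.762 and 0.204 CPM in vehicle hypoxia, against 4.31, 3.16 and 3.54 CPM in vehicle normoxia (log2 fold change -2.90, SE 0.40, edgeR FDR 2.3e-07; the value was -3.49 without KO vehicle hypoxia 2). These genes lie in a row with Adam9 on the minus strand of chromosome 8: Adam9 is followed by Adam32 after 807 bases, Adam5 after 11774, Adam3 after 7160 and Adam18 after 2479. In the mm9 gene models used for counting, no exons of these neighbours overlap.

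With POVPC present, Adamts4, Adamts12 and Adamts15 fell under hypoxia in both lines, and Adamts5 fell in WT cells. Adamts5 had 78.1, 53.7 and 60.7 CPM in KO POVPC hypoxia, against 46.9, 46.1 and 45.4 CPM in KO POVPC normoxia, and 25.4, 22.1 and 26.03 CPM in WT POVPC hypoxia, against 164, 152 and 154 CPM in WT POVPC normoxia; the log2 fold change was 0.48 in KO (edgeR FDR 6.12e-05) and -2.66 in WT (edgeR FDR 3.48e-19). Adamts15 had 0.606, 1.09 and 0.782 CPM in WT POVPC hypoxia, against 71.7, 71.8 and 69.3 CPM in WT POVPC normoxia (log2 fold change -6.49, SE 0.28, edgeR FDR 3.85e-16), and 0.166, 0.452 and 0.178 CPM in KO POVPC hypoxia, against 2.99, 2.78 and 2.67 CPM in KO POVPC normoxia (-3.40; the value was -4.00 without KO POVPC hypoxia 2). Hypoxic libraries lay wholly below normoxic ones, except for Adamts5 in KO, where they lay above. Adamts4 had 0.747, 0.271 and 0.267 CPM in KO POVPC hypoxia, against 14.1, 12.7 and 12.4 CPM in KO POVPC normoxia (-4.89; the value was -5.60 without KO POVPC hypoxia 1), and 0.303, 0.546 and 0.391 CPM in WT POVPC hypoxia, against 5.82, 4.96 and 4.702 CPM in WT POVPC normoxia (log2 fold change -3.70, SE 0.29, edgeR FDR 5.39e-12). Adamts12 had 2.24, 2.89 and 2.4 CPM in KO POVPC hypoxia, against 69.7, 66.8 and 59.2 CPM in KO POVPC normoxia (log2 fold change -4.70, SE 0.13, edgeR FDR 5.86e-23), and 1.14, 1.37 and 1.02 CPM in WT POVPC hypoxia, against 20.6, 20.7 and 20.6 CPM in WT POVPC normoxia (log2 fold change -4.21, SE 0.16, edgeR FDR 1.66e-19). For both genes every hypoxic library lay below every normoxic one, and Adamts4 was under 1 CPM in all 6 hypoxic libraries with POVPC.

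Adamts2, a procollagen N-proteinase, and Adamtsl1, Adamtsl2, Adamtsl3 and Adamtsl4 were lower in hypoxia in the pairs given next, and Adamtsl5 was higher. Adamts2 had 78.4, 55.7 and 61.5 CPM in KO POVPC hypoxia, against 296, 279 and 263 CPM in KO POVPC normoxia (log2 fold change -2.10, SE 0.11, edgeR FDR 5.51e-16), and with vehicle 78.1, 86.04 and 84.6 CPM in KO hypoxia, against 249.8, 274 and 299 CPM in KO normoxia (log2 fold change -1.73, SE 0.11, edgeR FDR 4.39e-14). Adamtsl3 had 41.5, 43.8 and 35.6 CPM in KO POVPC hypoxia, against 328, 309 and 308 CPM in KO POVPC normoxia (log2 fold change -2.97, SE 0.10, edgeR FDR 2.11e-20), and 49.4, 55.6 and 49.05 CPM in WT POVPC hypoxia, against 547, 466 and 473 CPM in WT POVPC normoxia (log2 fold change -3.27, SE 0.10, edgeR FDR 3.8e-21). None of these groups overlapped. Adamtsl1 had 0.249, 0.271 and 0.0889 CPM in KO POVPC hypoxia, against 1.84, 1.64 and 1.91 CPM in KO POVPC normoxia (log2 fold change -3.11, SE 0.36, edgeR FDR 1.06e-08). Adamtsl2 had 0.1401, 0.1098 and 0.135 CPM in WT vehicle hypoxia, against 3.78, 2.51 and 1.99 CPM in WT vehicle normoxia (log2 fold change -4.34, SE 0.45, edgeR FDR 1.81e-09), and 0.151, 0.273 and 0.0782 CPM in WT POVPC hypoxia, against 2.04, 2.17 and 2.47 CPM in WT POVPC normoxia (log2 fold change -4.01, SE 0.52, edgeR FDR 1.63e-07). Adamtsl4 had 11.5, 16.3 and 16.5 CPM in WT POVPC hypoxia, against 78.8, 57.2 and 60.2 CPM in WT POVPC normoxia (log2 fold change -2.15, SE 0.16, edgeR FDR 9.96e-12). In these pairs each hypoxic library was below each normoxic one for Adamtsl1, Adamtsl2 and Adamtsl4. Adamtsl5 had 6.89, 7.104 and 8.91 CPM in WT POVPC hypoxia, against 3.57, 3.11 and 3.86 CPM in WT POVPC normoxia (log2 fold change 1.16, SE 0.15, edgeR FDR 1.51e-07), and the hypoxic libraries were the higher ones.

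Among membrane ADAMs with POVPC, Adam12 had 0.997, 1.17 and 0.844 CPM in KO hypoxia, against 16.2, 13.97 and 12.7 CPM in KO normoxia (log2 fold change -3.82, SE 0.24, edgeR FDR 2.11e-13). Adam18 had 6.52, 7.996 and 6.62 CPM in KO POVPC hypoxia, against 1.05, 1.18 and 1.49 CPM in KO POVPC normoxia (log2 fold change 2.51, SE 0.24, edgeR FDR 1.33e-09), and 1.44, 2.05 and 1.68 CPM in WT POVPC hypoxia, against 0, 0 and 0 CPM in WT POVPC normoxia (edgeR FDR 3.46e-10). Adam32 had 3.45, 6.099 and 5.64 CPM in KO POVPC hypoxia, against 0.572, 0.534 and 1.11 CPM in KO POVPC normoxia (log2 fold change 2.78, SE 0.37, edgeR FDR 1.18e-07), and Adam5 had 0.581, 0.587 and 0.489 CPM in KO POVPC hypoxia, against 4.13, 3.88 and 3.78 CPM in KO POVPC normoxia (log2 fold change -2.82, SE 0.37, edgeR FDR 8.63e-08). Adam18 and Adam32 were higher, and Adam12 and Adam5 lower, in all 3 hypoxic KO libraries than in the normoxic ones.

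**Figure D3:**
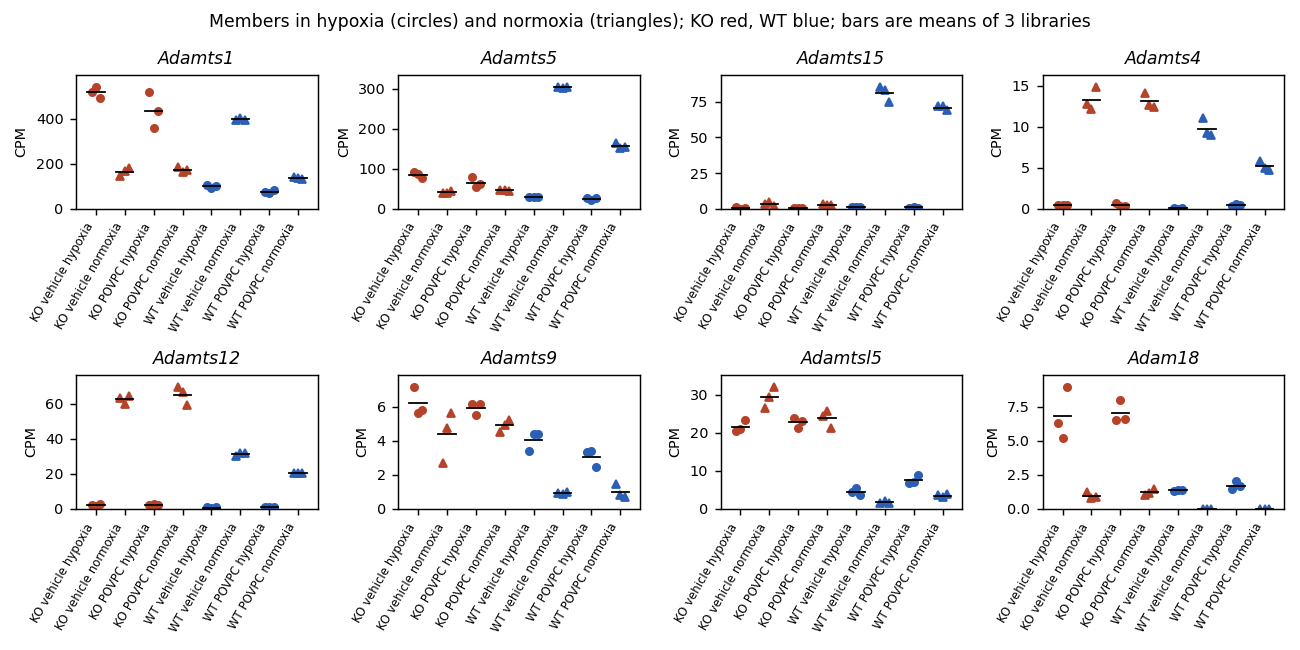
CPM per library (linear axes from 0) of 8 members, with hypoxia (circles) left of normoxia (triangles) in each pair, KO red, WT blue, and bars at the mean of 3 libraries. Adamts1 and Adamts5 are higher in hypoxia in KO and lower in WT, while Adamts12, Adamts15 and Adamts4 are lower in hypoxia in both.

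POVPC moved members in the WT line. In WT normoxia Adam12 rose to 98.5, 97.9 and 92.3 CPM with POVPC, against 23.8, 19.05 and 21.6 CPM with vehicle (log2 fold change 2.17, SE 0.17, edgeR FDR 1.11e-10). Adamts1 fell to 140.4, 135 and 132 CPM with POVPC, against 393, 403 and 396 CPM with vehicle (log2 fold change -1.55, SE 0.098, edgeR FDR 3.73e-13). The POVPC libraries of these 2 genes all lay on 1 side of the vehicle libraries. In the KO line in normoxia, Adam12 averaged 14.3 ± 1.77 CPM with POVPC and 12.7 ± 2.48 CPM with vehicle, and Adamts1 174 ± 9.69 CPM with POVPC and 164 ± 18.8 CPM with vehicle (SD, n = 3 each; edgeR FDR 0.798 and 0.821). The POVPC responses of the lines differed in normoxia for Adam12 (difference in log2 fold change -2.0, SE 0.24, edgeR FDR 6.18e-07) and Adamts1 (difference in log2 fold change 1.63, SE 0.14, edgeR FDR 4.01e-10).

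With POVPC in WT normoxia, 8 of 13 ADAMTS members fell, 2 of 5 ADAMTS-like members fell and 2 rose, and 4 of 8 protease-active membrane ADAMs rose. Of all genes, 13.1% rose and 13.8% fell. The branches are small and were drawn up with earlier results known, so these counts are a description. Adamts5 had 164, 152 and 154 CPM with POVPC, against 304, 301 and 305 CPM with vehicle (log2 fold change -0.96, SE 0.093, edgeR FDR 2.41e-09). Adamts6 had 8.32, 10.2 and 9.06 CPM with POVPC, against 33.05, 31.6 and 32.2 CPM with vehicle (log2 fold change -1.81, SE 0.14, edgeR FDR 2.75e-11), and Adamtsl1 had 4.37, 3.84 and 4.45 CPM with POVPC, against 20.1, 24.1 and 20.2 CPM with vehicle (log2 fold change -2.35, SE 0.20, edgeR FDR 9.98e-11). No POVPC library of these 3 genes reached a vehicle library, which their choice by fold change favours. Of the 13 ADAMTS members tested in culture, 8 fell (13.8% of all genes) and none rose (13.1% of all genes). The 8 were Adamts1, Adamts4, Adamts5, Adamts6, Adamts7, Adamts10, Adamts12 and Adamts14. The falls of Adamts4, Adamts10, Adamts12 and Adamts14 were -0.92, -0.60, -0.60 and -1.09 on the log2 scale (edgeR FDR at most 0.000129), and that of Adamts7 was -0.47, for which the call was lost when WT vehicle normoxia 1 (-0.43), WT vehicle normoxia 3 (-0.49), WT POVPC normoxia 2 (-0.43) or WT POVPC normoxia 3 (-0.39) was left out.

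Adam9, Adam10, Adam12 and Adam15 rose among the 8 protease-active membrane ADAMs (13.1% of all genes rose), and none of the 8 fell (13.8% of all genes). Adam15 had 284, 273 and 305 CPM with POVPC, against 141, 138 and 150.1 CPM with vehicle (log2 fold change 1.01, SE 0.086, edgeR FDR 1.53e-10). Adam9 had 338, 323 and 315 CPM with POVPC, against 199, 172 and 169 CPM with vehicle (log2 fold change 0.86, SE 0.088, edgeR FDR 6.97e-09), and Adam10 had 175, 189.7 and 185 CPM with POVPC, against 117, 112 and 109 CPM with vehicle (log2 fold change 0.70, SE 0.063, edgeR FDR 4.26e-10). The POVPC libraries were the higher ones throughout. Adamtsl4 (0.83) and Adamtsl5 (1.0) also rose, and the protease-dead Adam11 (-0.71) and Adam22 (-1.12) fell (edgeR FDR at most 0.00455). Rn45s took 3.23% to 11.1% of the counts in WT POVPC normoxia, against 1.31% to 1.498% in WT vehicle normoxia, and contractile markers summed to 183 to 221 CPM with POVPC, against 380.1 to 437 CPM with vehicle; their part in these changes was not tested.

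In WT hypoxia POVPC raised 6 members and lowered 8; whether this response differed from that in normoxia was not tested. Adamts4 had 0.303, 0.546 and 0.391 CPM with POVPC, against 0.0701, 0 and 0.102 CPM with vehicle (log2 fold change 2.49, SE 0.61, edgeR FDR 0.00366), a rise between levels of few reads. Adam15 rose (0.51, edgeR FDR 6.2e-05), as did Adamtsl5 (0.79, edgeR FDR 0.000288). Adamtsl1 fell to 1.06, 1.37 and 0.625 CPM with POVPC, against 4.17, 3.95 and 5.28 CPM with vehicle (log2 fold change -2.32, SE 0.28, edgeR FDR 5.03e-07), and Adam9 fell by 0.48 on the log2 scale (edgeR FDR 0.000179). Adam15 had 173, 150 and 215 CPM with POVPC, against 125, 131 and 122 CPM with vehicle, and Adam9 176, 173 and 198 CPM with POVPC, against 273, 227 and 265 CPM with vehicle, without overlap. Adamts7 had 8.099, 5.74 and 7.46 CPM with POVPC, against 4.55, 4.01 and 5.62 CPM with vehicle (0.60; the call was lost when WT vehicle hypoxia 1 (0.57), WT vehicle hypoxia 2 (0.51), WT POVPC hypoxia 1 (0.52) or WT POVPC hypoxia 3 (0.57) was left out), and Adamts6 8.02, 13.1 and 8.403 CPM with POVPC, against 6.795, 7.03 and 6.97 CPM with vehicle (0.45; the call was lost when WT vehicle hypoxia 1 (0.44), WT vehicle hypoxia 2 (0.46), WT vehicle hypoxia 3 (0.46) or WT POVPC hypoxia 2 (0.25) was left out). Neither of these 2 overlapped between POVPC and vehicle. Only 9 of the 14 calls in WT hypoxia were kept whichever single library was left out. For Adamtsl4 (-0.47) the call was lost when WT vehicle hypoxia 1 (-0.49), WT vehicle hypoxia 3 (-0.37), WT POVPC hypoxia 1 (-0.32) or WT POVPC hypoxia 2 (-0.52) was left out, for Adam12 (-0.64) the call was lost when WT vehicle hypoxia 1 (-0.55), WT POVPC hypoxia 1 (-0.56) or WT POVPC hypoxia 2 (-0.47) was left out, and for Adam19 (0.44) the call was lost when WT vehicle hypoxia 1 (0.38), WT vehicle hypoxia 2 (0.39) or WT POVPC hypoxia 2 (0.38) was left out. POVPC gave 6 members that were called higher in 1 pair and lower in another (Adamts4, Adamts6, Adamts7, Adamtsl4, Adam9 and Adam12; 17.1% of members, 4.28% of all genes) and none called the same way in all 4 pairs, as for all genes (0.0% each way). In KO hypoxia the 2 falls were Adamtsl3 (-0.54, edgeR FDR 0.000955) and Adamts5 (-0.41), for which the call was lost when KO vehicle hypoxia 1 (-0.34), KO vehicle hypoxia 2 (-0.40), KO POVPC hypoxia 2 (-0.30) or KO POVPC hypoxia 3 (-0.37) was left out.

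**Figure D4:**
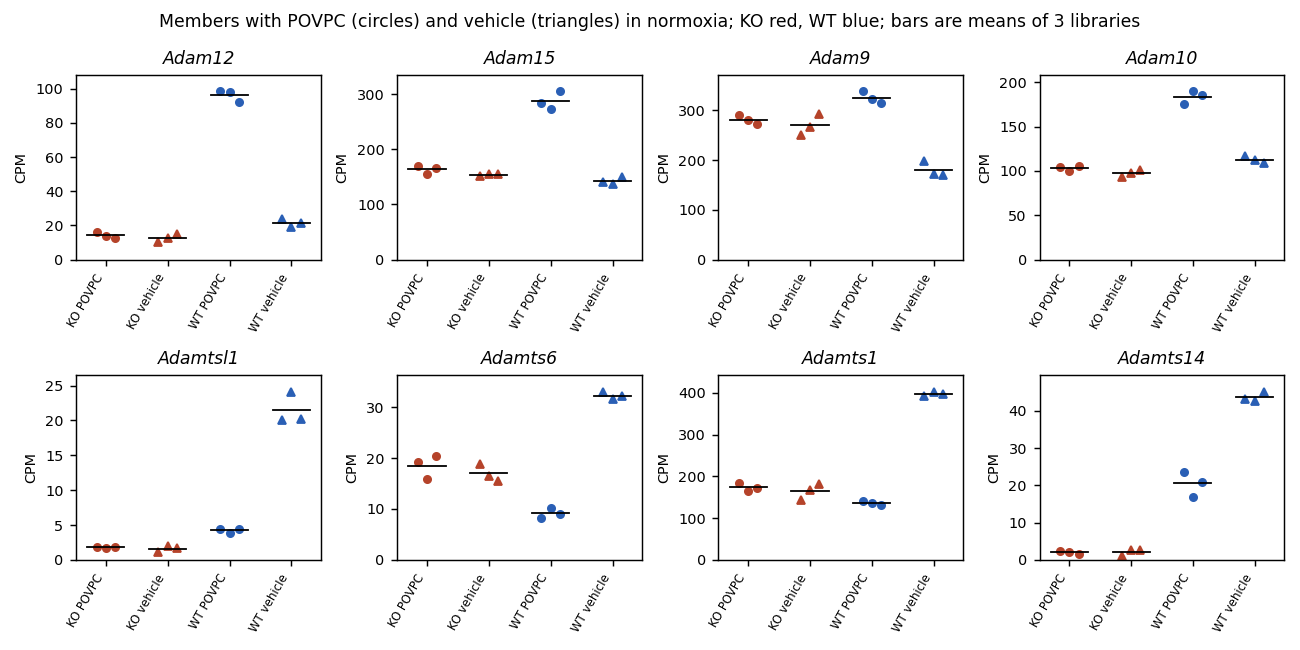
CPM per library (linear axes from 0) of 8 members in normoxia, with POVPC (circles) left of vehicle (triangles), KO red, WT blue, and bars at the mean of 3 libraries. In WT, Adam12, Adam15, Adam9 and Adam10 are higher and Adamtsl1, Adamts6, Adamts1 and Adamts14 lower with POVPC, while in KO the bars of the POVPC and vehicle groups lie close together.

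Between the lines, members of each branch stood apart in all 4 culture conditions. Higher in KO in each were Adamts9, Adamts10, Adamts12, Adamtsl5, Adam5 and Adam18 (17.1% of members, 14% of all genes), and lower in each were Adamts14, Adamts15, Adamtsl1, Adamtsl3, Adamtsl4, Adam10, Adam11, Adam12 and Adam22 (25.7% of members, 13.8% of all genes). Adamts1, Adamts5, Adamts6, Adam1a and Adam9 were called in opposite directions in different conditions (14.3% of members, 10.3% of all genes). The 4 conditions share the 2 lines, so they are no independent test of genotype. Some of these calls were lost without 1 library. In vehicle hypoxia these were Adam5 (1.39; the call was lost when WT vehicle hypoxia 2 (1.21), WT vehicle hypoxia 3 (0.94) or KO vehicle hypoxia 2 (0.80) was left out and the value was 2.46 without WT vehicle hypoxia 1), Adamts9 (0.63; the call was lost when WT vehicle hypoxia 1 (0.51) or KO vehicle hypoxia 1 (0.50) was left out), Adamtsl3 (-0.24; the call was lost when WT vehicle hypoxia 1 (-0.15), WT vehicle hypoxia 3 (-0.24) or KO vehicle hypoxia 1 (-0.18) was left out) and Adamts15, given below. In POVPC hypoxia they were Adamtsl4 (-0.41; the call was lost when WT POVPC hypoxia 2 (-0.39), WT POVPC hypoxia 3 (-0.29), KO POVPC hypoxia 2 (-0.38) or KO POVPC hypoxia 3 (-0.42) was left out), Adamts15 (-1.56; the call was lost when WT POVPC hypoxia 3 (-1.56), KO POVPC hypoxia 1 (-1.35) or KO POVPC hypoxia 3 (-1.35) was left out and the value was -2.15 without KO POVPC hypoxia 2) and Adam11 (-0.91; the call was lost when WT POVPC hypoxia 3 (-0.66) was left out). The lower call of Adam1a in vehicle normoxia was kept in 1 of 6 fits without 1 library (-0.63; the call was lost when WT vehicle normoxia 1 (-0.63), WT vehicle normoxia 2 (-0.57), WT vehicle normoxia 3 (-0.68), KO vehicle normoxia 1 (-0.51) or KO vehicle normoxia 3 (-0.68) was left out), and its higher call in vehicle hypoxia in 4 of 6 (0.70; the call was lost when WT vehicle hypoxia 2 (0.41) or KO vehicle hypoxia 2 (0.61) was left out). For Adam9 the lower call in POVPC normoxia was kept in 2 of 6 (-0.21; the call was lost when WT POVPC normoxia 1 (-0.18), WT POVPC normoxia 2 (-0.22), KO POVPC normoxia 2 (-0.20) or KO POVPC normoxia 3 (-0.19) was left out) and the higher one in POVPC hypoxia in 1 of 6 (0.21; the call was lost when WT POVPC hypoxia 1 (0.18), WT POVPC hypoxia 2 (0.14), KO POVPC hypoxia 1 (0.14), KO POVPC hypoxia 2 (0.21) or KO POVPC hypoxia 3 (0.23) was left out). With vehicle its calls, also in opposite directions, were kept in 6 of 6 fits each. Over those fits its log2 fold change was 0.52 to 0.66 in normoxia and -0.45 to -0.28 in hypoxia.

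Adam5 and Adamtsl5 were the members furthest above WT in vehicle normoxia among those with counts in both lines. Adam5 had 4.31, 3.16 and 3.54 CPM in KO, against 0.216, 0.254 and 0.0723 CPM in WT (log2 fold change 4.28, SE 0.42, edgeR FDR 6.29e-10). Adamtsl5 had 26.6, 29.3 and 32.02 CPM in KO vehicle normoxia, against 1.58, 2.003 and 1.63 CPM in WT vehicle normoxia (log2 fold change 4.07, SE 0.15, edgeR FDR 1.9e-19). In vehicle hypoxia it had 20.5, 20.96 and 23.3 CPM in KO, against 4.34, 5.601 and 3.79 CPM in WT (log2 fold change 2.25, SE 0.14, edgeR FDR 2.87e-14). Every KO library was above every WT library of its condition. Adam18, at 0.789 to 1.49 CPM in KO normoxia, was at least 28.4-fold higher in KO than in WT in vehicle normoxia and at least 29.4-fold higher in POVPC normoxia, with 0 counts in the WT libraries and a floor of 3 counts over the group. Adamts12 was higher in KO by 1.0 in vehicle normoxia and 1.59 in vehicle hypoxia on the log2 scale (edgeR FDR 5.3e-10 and 5.2e-08), and Adamts10, a fibrillin-associated enzyme, by 0.61 and 0.53 (edgeR FDR 1.06e-07 and 2.61e-06).

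Adamts14 and Adamts15 were the called members with the largest deficits against WT in vehicle normoxia. Adamts14 had 1.13, 2.76 and 2.55 CPM in KO vehicle normoxia, against 43.2, 42.8 and 45.2 CPM in WT vehicle normoxia (log2 fold change -4.32, SE 0.20, edgeR FDR 2.09e-17). It had 0.675, 0.572 and 1.02 CPM in KO vehicle hypoxia, against 12.3, 11.3 and 9.82 CPM in WT vehicle hypoxia (log2 fold change -3.98, SE 0.25, edgeR FDR 6.39e-14). The lines did not overlap. Adamts15 differed as far in normoxia (log2 fold change -4.57, SE 0.21, edgeR FDR 2.37e-15; its library values are given above) and by -1.26 in vehicle hypoxia, where the call was lost when WT vehicle hypoxia 2 (-1.13), KO vehicle hypoxia 2 (-0.71) or KO vehicle hypoxia 3 (-1.11) was left out and the value was -2.97 without KO vehicle hypoxia 1. Adam12 was lower in KO by 0.75 on the log2 scale in vehicle normoxia and by 2.75 in POVPC normoxia (edgeR FDR 0.00049 and 2.96e-13). Adam10 was lower by 0.21 in vehicle normoxia and by 0.84 in POVPC hypoxia (edgeR FDR 0.00419 and 3.38e-12).

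The ADAMTS-like, versican-cutting and neural members also differed between the lines. Adamtsl1 had 1.13, 1.93 and 1.71 CPM in KO vehicle normoxia, against 20.1, 24.1 and 20.2 CPM in WT vehicle normoxia (log2 fold change -3.74, SE 0.22, edgeR FDR 7.12e-15), and 0.295, 0.8099 and 0.713 CPM in KO vehicle hypoxia, against 4.17, 3.95 and 5.28 CPM in WT vehicle hypoxia (log2 fold change -2.96, SE 0.29, edgeR FDR 5.15e-10). Adam22 had 1.13, 0.657 and 1.12 CPM in KO vehicle normoxia, against 7.24, 5.501 and 6.397 CPM in WT vehicle normoxia (log2 fold change -2.72, SE 0.31, edgeR FDR 1.49e-08), and Adam11 2.41, 2.85 and 2.47 CPM in KO, against 9.97, 10.8 and 9.72 CPM in WT (log2 fold change -1.98, SE 0.20, edgeR FDR 1.74e-09). All KO libraries were lower. Adamts9 had 2.72, 4.78 and 5.66 CPM in KO vehicle normoxia, against 0.936, 0.8903 and 1.01 CPM in WT vehicle normoxia (log2 fold change 2.22, SE 0.25, edgeR FDR 1.02e-08), and 4.55, 4.95 and 5.23 CPM in KO POVPC normoxia, against 1.44, 0.833 and 0.693 CPM in WT POVPC normoxia (log2 fold change 2.30, SE 0.25, edgeR FDR 5.94e-09), with all KO libraries higher. Adamtsl4 had 20.2, 18.2 and 18.6 CPM in KO POVPC normoxia, against 78.8, 57.2 and 60.2 CPM in WT POVPC normoxia (log2 fold change -1.78, SE 0.15, edgeR FDR 1.37e-10). With vehicle it had 10.4, 15.3 and 19.6 CPM in KO normoxia, against 34.9, 37.6 and 37.5 CPM in WT normoxia (log2 fold change -1.27, SE 0.15, edgeR FDR 8.46e-08). All KO libraries were the lower ones.

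Adamts14, Adamtsl5 and Adam5 differed between the lines with POVPC, and Adam15, Adam22 and Adam11 in hypoxia. Adamts14 had 2.32, 2.17 and 1.49 CPM in KO POVPC normoxia, against 23.7, 16.95 and 20.99 CPM in WT POVPC normoxia (log2 fold change -3.35, SE 0.19, edgeR FDR 4.91e-15), and 0.997, 0.632 and 0.8 CPM in KO POVPC hypoxia, against 9.99, 11.5 and 11.8 CPM in WT POVPC hypoxia (log2 fold change -3.76, SE 0.24, edgeR FDR 8.11e-14). Adamtsl5 had 24.5, 25.8 and 21.3 CPM in KO POVPC normoxia, against 3.57, 3.11 and 3.86 CPM in WT POVPC normoxia (log2 fold change 2.77, SE 0.14, edgeR FDR 2.51e-16), and 23.9, 21.2 and 23.1 CPM in KO POVPC hypoxia, against 6.89, 7.104 and 8.91 CPM in WT POVPC hypoxia (log2 fold change 1.54, SE 0.14, edgeR FDR 9.06e-11). Adam5 had 4.13, 3.88 and 3.78 CPM in KO POVPC normoxia, against 0.1699, 0.362 and 0.495 CPM in WT POVPC normoxia (log2 fold change 3.52, SE 0.39, edgeR FDR 7.57e-09). KO was lower for Adamts14 and higher for Adamtsl5 and Adam5 in every library. Adam15 had 84.3, 88.1 and 89.4 CPM in KO POVPC hypoxia, against 173, 150 and 215 CPM in WT POVPC hypoxia (log2 fold change -1.04, SE 0.086, edgeR FDR 2.56e-11). Adam22 had 2.03, 1.4 and 1.42 CPM in KO POVPC hypoxia, against 5.15, 3.14 and 3.24 CPM in WT POVPC hypoxia (log2 fold change -1.24, SE 0.32, edgeR FDR 0.00133), and Adam11 had 2.404, 1.52 and 2.85 CPM in KO vehicle hypoxia, against 6.31, 6.48 and 8.22 CPM in WT vehicle hypoxia (log2 fold change -1.68, SE 0.22, edgeR FDR 1.58e-07). These 3 were lower in each KO library.

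With vehicle, Adamts1 and Adamts5 changed sides between oxygen levels. With POVPC Adamts5 did so too, while Adamts1 was called higher in KO at both oxygen levels. Adamts1 had 184, 165 and 172 CPM in KO POVPC normoxia, against 140, 135 and 132 CPM in WT POVPC normoxia. In vehicle normoxia Adamts5 had 39.5, 40.1 and 45.3 CPM in KO, against 304, 301 and 305 CPM in WT (log2 fold change -2.86, SE 0.1, edgeR FDR 4.61e-20), and in vehicle hypoxia 92.7, 86.8 and 75.6 CPM in KO, against 30.4, 28.4 and 28.97 CPM in WT (log2 fold change 1.54, SE 0.098, edgeR FDR 5.59e-14). For Adamts1 the log2 fold change of KO over WT was -1.27 in vehicle normoxia and 2.39 in vehicle hypoxia (edgeR FDR 3.37e-12 and 7.48e-18). KO libraries were the lower ones in vehicle normoxia and the higher ones in vehicle hypoxia for both genes.

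The response to hypoxia or POVPC differed between the lines for part of the family. For hypoxia with vehicle, 16 members had a higher log2 fold change in KO than in WT (19.2% of all genes) and 9 a lower one (19.9%; 39.1% called), and with POVPC 8 a higher (15.7%) and 6 a lower one (14.4%; 30% called). For POVPC in normoxia it was 12 higher (8.17% of all genes) and 5 lower (8%; 16.2% called), and in hypoxia 1 higher (5.89%) and 4 lower (3.48%; 9.37% called). After Adamts1 and Adamts5, Adamts15 had a large positive difference under hypoxia with vehicle (difference in log2 fold change 3.31, SE 0.60, edgeR FDR 9.85e-05), but it starts from a far lower KO level and the call was lost when KO vehicle hypoxia 1 (1.61) was left out. Adamts9 and Adamtsl5 had called negative ones, given above.

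In lesions no member passed the threshold. Of 36 members tested, 0 were called by edgeR, as was 0.0% of all genes, and 5 had an unadjusted p under 0.05, beside 14.8% of all genes. Leaving out any single lesion library, KO 4 included, also gave 0 edgeR calls. DESeq2 called 2, Adam8 (FDR 0.00199) and Adam17 (FDR 0.0494), beside 3.26% of all genes. Of the 36 log2 fold changes of members, 26 were below 0, with a median of -0.216, where the median of all genes was -0.009. The share of all genes below 0 was not counted, so the 26 are a description of uncalled values. In tissue made of several cell types, fewer cells of a type and less RNA per cell cannot be told apart.

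Adam8 had 106, 157, 117 and 182 CPM in the 4 KO lesions, against 83.3, 84.1, 71.6 and 54.6 CPM in the 4 WT lesions (log2 fold change 0.94, SE 0.20, edgeR unadjusted p 0.000969, FDR 0.17). All KO values were above the WT ones. Macrophage markers were higher in the same animals, with a sum over 11 genes of 4112 to 9313 CPM in KO lesions, against 2486 to 3706 CPM in WT lesions; all 11 had a positive log2 fold change, none was called, and none was at 0. Adam17 had 97.6, 120, 122 and 135 CPM in KO lesions, against 95.4, 94.02, 93.4 and 78.5 CPM in WT lesions (log2 fold change 0.39, edgeR FDR 0.183), and Adam10 148, 151, 157 and 181 CPM in KO lesions, against 129.7, 138, 142 and 131 CPM in WT lesions (0.23, edgeR FDR 0.269). The KO and WT lesions did not overlap for either. Without KO 4 the log2 fold changes were 0.80 for Adam8, 0.33 for Adam17 and 0.18 for Adam10. The part of macrophage content in these differences was not tested.

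Lower in KO without overlap were Adamtsl1 and Adamts17. The lesion members given by library were chosen for the smallest p in these libraries, which favours groups without overlap. The share of all genes without overlap was not counted. Adamtsl1 had 16.4, 13.7, 15.4 and 13.2 CPM in KO lesions, against 20.2, 18.1, 21.1 and 17.97 CPM in WT lesions (log2 fold change -0.40, edgeR FDR 0.18). Adamts17 had 0.152, 1.25, 1.06 and 1.96 CPM in KO lesions, against 4.34, 2.402, 3.31 and 2.72 CPM in WT lesions (-1.44, edgeR FDR 0.207). Both were below every WT lesion in all 4 KO lesions, and neither passed the threshold. Adamts20 had 6.84, 6.25, 4.02 and 3.71 CPM in KO lesions, against 8.41, 5.43, 8.12 and 8.04 CPM in WT lesions. Adamtsl4 had 30.4, 35.1, 30.5 and 42.8 CPM in KO lesions, against 49.8, 37.2, 43.2 and 40.1 CPM in WT lesions. Adam4 had 4.71, 5.83, 5.496 and 8.45 CPM in KO lesions, against 10.6, 7.92, 8.86 and 6.37 CPM in WT lesions. These 3 overlapped between the groups (edgeR FDR 0.348, 0.364 and 0.386). Contractile markers summed to 5237 to 7525 CPM in KO lesions, against 7295 to 11279.9 CPM in WT lesions, and endothelial markers to 1662 to 1925 CPM in KO lesions, against 1276 to 1545 CPM in WT lesions; the part of cell makeup was not tested.

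Members that differed between the culture lines did not pass the threshold in lesions, where 0.0% of all genes did. The miss therefore sets them apart from no other gene, and their lesion values are given as a description. The 5 taken here had the largest called differences in vehicle normoxia among members averaging 1 CPM or more over the compared groups. Adam18 and Adam33 were also called there, below that level. Of the 5, Adamtsl1 (-0.40 in lesions) is given above, and Adamts15, Adamts14, Adam5 and Adamtsl5 follow. Adamts1 and Adamts5, the neighbours on chromosome 16, are given with them. Adamts1 averaged 102 ± 5.799 CPM in KO lesions and 113 ± 18.6 CPM in WT lesions, and Adamts5 145 ± 11.2 CPM in KO lesions and 147 ± 5.4 CPM in WT lesions (SD, n = 4 each; edgeR FDR 0.599 and 0.933). Adamts15 averaged 74.6 ± 14.6 CPM in KO lesions and 77.4 ± 19.7 CPM in WT lesions, and Adamtsl5 39.3 ± 12.8 CPM in KO lesions and 42.1 ± 6.25 CPM in WT lesions (edgeR FDR 0.916 and 0.843). The log2 fold changes of these 4 were -0.15, -0.02, -0.05 and -0.10. Adamts14 averaged 4.86 ± 0.978 CPM in KO lesions and 6.29 ± 2.22 CPM in WT lesions (log2 fold change -0.36, edgeR FDR 0.569), and Adam5 2.49 ± 0.486 CPM in KO lesions and 2.504 ± 1.04 CPM in WT lesions (edgeR FDR 0.998). KO and WT lesions overlapped for all 6. Among the neural, protease-dead ADAMs, Adam22 averaged 47.3 ± 21.6 CPM in KO lesions and 61 ± 19.96 CPM in WT lesions and Adam11 15.7 ± 4.75 CPM in KO and 19.7 ± 1.93 CPM in WT lesions, while peripheral nerve markers summed to 305 to 549 CPM in KO lesions, against 544 to 645 CPM in WT lesions.

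**Figure D5:**
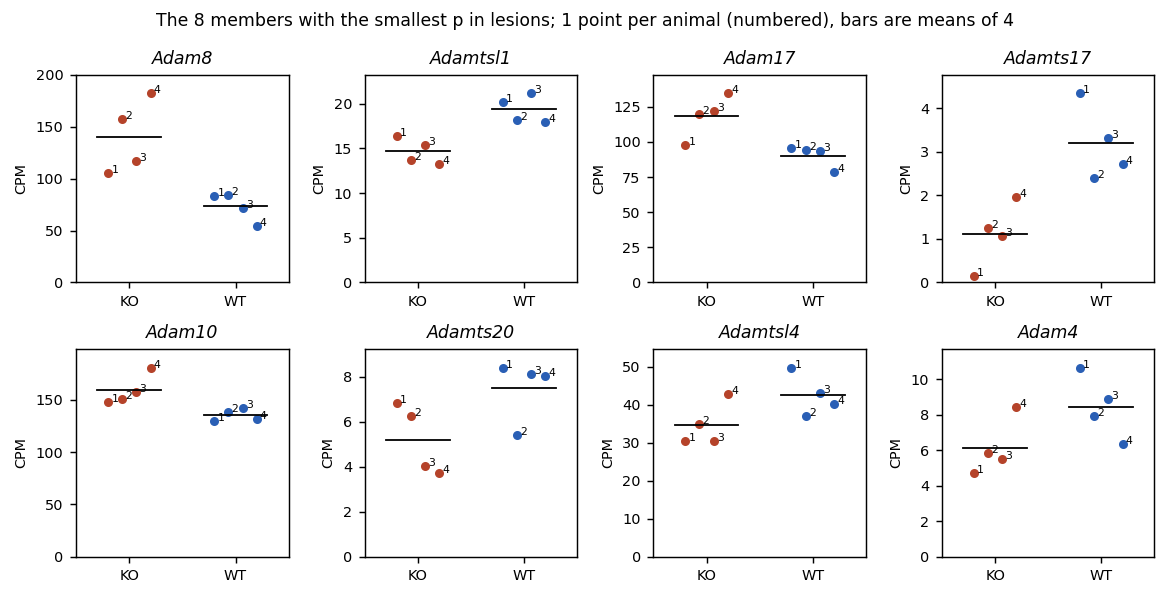
CPM per lesion (linear axes from 0) of the 8 members with the smallest edgeR p in lesions, KO left of WT, 1 numbered point per animal and bars at the mean of 4. KO and WT points do not overlap for Adam8, Adamtsl1, Adam17, Adamts17 and Adam10, and overlap for Adamts20, Adamtsl4 and Adam4. Choosing by p favours members without overlap, and the share of all genes without overlap was not counted.

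The partners of these proteases were read from lists of known inhibitors, activators and substrates. None of 7 inhibitors, 5 prodomain convertases, 5 tetraspanins of Adam10, 3 partners of Adam17, 29 matrix substrates or 34 shed membrane proteins tested was called in lesions by edgeR. Of all genes, 0.0% were called there. In culture under hypoxia, of 25 matrix substrates and partners tested, 2 rose and 17 fell in KO with vehicle, 3 and 18 in KO with POVPC, 2 and 19 in WT with vehicle and 3 and 21 in WT with POVPC. In the same order, 32.6% and 32.8%, 34.5% and 33.9%, 32.8% and 35.3%, and 31.8% and 34.3% of all genes rose and fell. Versican (Vcan), the substrate of Adamts1, Adamts5, Adamts9 and Adamts15, had a log2 fold change of -0.42 in KO vehicle cells, which passed the threshold, and of -0.09 in WT vehicle cells, which did not. Lumican (Lum) and fibromodulin (Fmod) had -7.20 and -5.26 in KO vehicle cells and both fell.

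The tissue inhibitors Timp1 and Timp3 were called in opposite directions in the lines under hypoxia with vehicle and fell in both lines with POVPC. Timp3, the inhibitor of Adam17 and several ADAMTS enzymes, fell under hypoxia in KO vehicle cells (log2 fold change -1.5) and rose in WT vehicle cells (1.01); with POVPC it had -1.59 in KO and -0.66 in WT. Timp1 fell in KO vehicle cells (-1.92) and rose in WT vehicle cells (2.41); with POVPC it had -1.69 in KO and -1.09 in WT. POVPC raised Timp1 in WT normoxia (3.25). Reck, a membrane-anchored inhibitor, fell under hypoxia in all 4 pairs, by 1.46, 1.71, 2.90 and 3.06 on the log2 scale. Of the 5 inhibitors tested in culture, 0 rose and 4 fell in KO hypoxia with vehicle and with POVPC, 2 rose and 1 fell in WT with vehicle, and 0 rose and 4 fell in WT with POVPC; of all genes, 65.4%, 68.5%, 68.1% and 66.1% were called in these pairs. Rhbdf2 (iRhom2), which carries Adam17 to the surface, also fell in all 4 pairs (log2 fold change -1.21 in KO and -2.34 in WT vehicle cells), while Frmd8, which stabilizes that complex, rose in KO vehicle cells (0.79).

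The members not described, 17 in all, reached at most 15 counts in any library. Just outside the rule were Adam3 and Adamts13, the von Willebrand factor protease, with 10 or more counts in 2 libraries each, and Adam28, Adam39 and Adamts19 with 1 library each. Just inside was Adam30 with 5 libraries, followed by Adam23, Adamts3, Adamts8 and Adamts20 with 8 each. Of the 20 members known from reproductive tract, 7 were described; of the 9 protease-active somatic ADAMs, 8 were. Adam4 was called in no comparison. Adam19, a neuregulin sheddase, fell to 15.8, 15.9 and 19.4 CPM in WT vehicle hypoxia, against 29.1, 31.99 and 29.4 CPM in WT vehicle normoxia (log2 fold change -0.82, SE 0.13, edgeR FDR 2.26e-06). Adam1a had 7.59, 9.005 and 7.64 CPM in KO vehicle hypoxia, against 3.13, 4.38 and 4.14 CPM in KO vehicle normoxia (log2 fold change 1.05, SE 0.27, edgeR FDR 0.00117). The groups did not overlap for either gene. Adam21, Adam30, Adam33, Adamts16 and Adamts17 had group means of at most 1.1 CPM in culture, and their calls there rest on few counts.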

How the data were processed

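The values are raw counts per gene that the authors deposited, 1 table for lesions and 1 for culture, with 23284 genes each. Per the file headers, counting was done with featureCounts 1.4.4 over the exons of the mm9 gene models, summed by gene symbol and without strand, with both mates of a fragment required in lesions and mates counted separately in culture. The submitters' processing notes also name CASAVA, STAR and DESeq2. The authors' assignment totals list reads that map to several places as unassigned, at 0.743 to 9.24 per assigned read in culture. Such reads are therefore not in the counts, so near-identical members such as Adam1a and Adam1b are uncertain. The members, roles and partner lists were chosen with earlier results of these data known.

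The counts as deposited were tested with edgeR 4.0.16 (quasi-likelihood, robust, TMM) in R 4.3.3, after filterByExpr with a minimum count of 10 and a minimum total of 15. The 8 lesion libraries were fitted alone, and the 24 culture libraries in 1 fit of 8 groups, which share an estimate of the spread; 17 comparisons were made, including the differences between the lines in their responses. Benjamini-Hochberg adjustment ran over all genes tested, with a threshold of 0.05. CPM uses effective library sizes, and RPKM the exon lengths of the files. The fit was tested on simulated data. Alternatives were DESeq2 1.42.0, other scalings, other filters, the compared groups alone, a replicate block, leaving out each library and leaving out the 3 shallowest together. Library values are given for called members averaging 1 CPM or more that are among the 10 largest absolute log2 fold changes of a comparison, for the 8 with the smallest p in lesions, and for up to 5 per difference between the lines; members named beside these were chosen after their values were seen. A comparison of protein sequences was not made.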

Additional observations from a re-analysis of the deposited data

Results flagged for a closer look

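In lesions, 72 groups of 4 values were examined for 1 animal far from the other 3, and 8 were found, where chance gives about 1 in 20. Library WT 4 was low for Adam17 (78.5 CPM) and Adamts8 (11.8 CPM), WT 3 high for Adam5 (4.06 CPM), WT 2 low for Adamts12 (23.6 CPM) and Adamts20 (5.43 CPM), WT 1 high for Adamts7 (14.6 CPM) and Adamts9 (58.2 CPM), and KO 4 high for Adamtsl5 (58.5 CPM).

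In culture, the KO and WT lines differed in their response to the same exposure by a test of the difference itself, given here as the KO minus the WT log2 fold change. For POVPC in normoxia these were Adamtsl1 (2.51), Adam12 (-2.0), Adamts6 (1.94), Adamts1 (1.63) and Adam22 (1.62). For POVPC in hypoxia they were Adamtsl5 (-0.71), Adamts6 (-0.70), Adam15 (-0.66) and Adam9 (0.58), of which Adamts6 and Adamtsl5 lost the call in some fits without 1 library: the call was lost when WT vehicle hypoxia 1 (-0.69), WT vehicle hypoxia 3 (-0.71), WT POVPC hypoxia 2 (-0.52), KO vehicle hypoxia 1 (-0.54) or KO POVPC hypoxia 1 (-0.66) was left out for Adamts6, and the call was lost when WT vehicle hypoxia 3 (-0.58) or WT POVPC hypoxia 3 (-0.55) was left out for Adamtsl5. For hypoxia with vehicle they were Adam18 (-5.21), Adamts5 (4.41), Adamts1 (3.67), Adamts15 (3.31) and Adam5 (-2.89). For Adamts15 the call was lost when KO vehicle hypoxia 1 (1.61) was left out, and for Adam5 the call was lost when WT vehicle hypoxia 1 (-1.82) was left out and the value was -3.48 without KO vehicle hypoxia 2. For hypoxia with POVPC they were Adam18 (-5.78), Adamts5 (3.14), Adamts15 (3.09), Adamts1 (2.19) and Adam32 (1.90). For Adamts15 the value was 2.5 without KO POVPC hypoxia 2, and for Adam32 the call was lost when WT POVPC normoxia 1 (1.47) or WT POVPC hypoxia 3 (1.51) was left out. The values of Adam18 rest on 0 counts in WT normoxia and are no measured size. Each line is 1 line per genotype, so genotype and line cannot be told apart in these differences.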

How the results depend on the processing

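No value called for a single member changed sign under any alternative. Of 299 such values, 297 kept their call with DESeq2, 297 with a replicate block, 296 with DESeq2's size factors in edgeR, 288 with library size alone, 287 with no filter on low counts, 279 with the compared groups fitted alone and 270 without the 3 shallowest libraries, as did 209 of the 210 that a filter at a mean of 5 CPM left. The number of members called moved by over 1.5 times in these cases, each cause untested except that the stricter filter tests fewer genes. DESeq2 called 2 in lesions against 0. The stricter filter gave 16 against 25 for KO over WT in vehicle normoxia, 14 against 24 in POVPC hypoxia, 18 against 28 for hypoxia in KO with POVPC, and 16 against 25 and 9 against 14 for the difference in hypoxia response with vehicle and with POVPC. For POVPC in WT hypoxia (14 calls), leaving out the 3 shallowest libraries gave 6 and fitting the groups alone 9. For POVPC in KO hypoxia (2 calls), library size alone and the groups alone gave 1 each, and DESeq2 4. For the difference in POVPC response in hypoxia (5 calls), library size alone and the groups alone gave 3 each, and leaving out the shallowest 2. Leaving out 1 library gave 9 to 14 calls for POVPC in WT hypoxia, 0 to 1 in KO normoxia, 1 to 5 in KO hypoxia and 3 to 6 for the difference in POVPC response in hypoxia; the low values came without WT vehicle hypoxia 1 (9 and 3), and those of KO hypoxia without KO vehicle hypoxia 2, KO POVPC hypoxia 2 or KO POVPC hypoxia 3 (1 each), with 5 without KO POVPC hypoxia 1. Replicate numbers did not pair the samples, with correlations of same-numbered deviations from -0.644 to 0.114 in lesions and -0.206 to 0.183 in culture. A replicate block gave 26 calls against 27 for hypoxia in KO with vehicle and 24 against 25 for the difference in hypoxia response with vehicle, and moved no other count. Library size alone moved the median log2 fold change of all genes to -0.211 for hypoxia in WT with vehicle (-0.032 with TMM), and the share of all calls that were higher to 36.4% (48.1% with TMM); for KO over WT in vehicle normoxia that share was 37.0% against 49.1%, for POVPC in WT normoxia 31.4% against 48.7%, in KO normoxia 33.3% against 16.7% and in KO hypoxia 78.3% against 48.5%, and for the differences in POVPC response 73.3% against 50.5% in normoxia and 80.6% against 62.9% in hypoxia, and in hypoxia response with vehicle 60.1% against 49.2%.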
